A study of Homo sapiens with 4 samples.

Results

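The genes described here are 10 members of the cellular response to low oxygen, taken by symbol from the deposited tables of 57773 genes: HIF1A, EPAS1, EGLN1, EGLN3, VEGFA, ADM, BNIP3, BNIP3L, CA9 and P4HA1. Each symbol matched 1 row. The 4 RNA libraries are of A2780, an established human line that the labels call ovarian adenocarcinoma and WT. DMSO 1 and 2 came from cells given the vehicle DMSO, with no dose or time stated for it, and wogonin 3 and 4 from cells given 10 ug/mL wogonin, a plant flavone, for 48 h. The series' title ties wogonin in ovarian cancer to AMPK and to TET2, an enzyme of DNA demethylation. No label mentions a low oxygen level, so the comparison is of wogonin with DMSO and not of hypoxia with normoxia. All 4 libraries are of 1 line, and separate cultures are not named in the labels. The p-values therefore measure only how these libraries spread, which may be technical.

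Hypoxia-inducible factors (HIFs) are pairs of an oxygen-sensitive alpha subunit, such as HIF1A or EPAS1 (HIF-2 alpha), and the stable partner ARNT. When oxygen is present, prolyl hydroxylases of the EGLN family mark the alpha subunit, the VHL ubiquitin ligase binds the mark and the protein is destroyed. When oxygen or hydroxylase activity falls, the alpha subunit persists and the pair binds a short DNA core, ACGTG or GCGTG, near target genes for blood vessel growth, glycolysis, pH control and mitophagy. Because HIF activity is set largely at the protein level, transcript counts do not measure it. EGLN3, and to a lesser degree EGLN1, are themselves HIF targets.

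Promoter sequences show how the DNA core lies in these genes, which were grouped as HIF targets or factors by description and not by these data. RefSeq windows (GRCh38.p14, 250 bases before to 50 after a start site) were at hand for 8 of the 10 genes. VEGFA and BNIP3L had no window. ACGTG or GCGTG was searched on both strands, where it reads CACGT or CACGC on the other strand. The stretches below lie before the start site, run 5′ to 3′ on the gene's strand, and have the core in capitals.
HIF1A, chr14:61695291-61695331, plus strand: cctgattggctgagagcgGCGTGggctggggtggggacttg
EPAS1, chr2:46297272-46297312, plus strand: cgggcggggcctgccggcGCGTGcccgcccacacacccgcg
ADM, chr11:10304954-10304994, plus strand: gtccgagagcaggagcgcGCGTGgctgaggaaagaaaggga
EGLN1, chr1:231422288-231422318, minus strand: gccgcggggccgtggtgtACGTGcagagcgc
CA9, chr9:35673892-35673927, plus strand: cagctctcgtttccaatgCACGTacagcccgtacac
P4HA1, chr10:73096930-73096970, minus strand: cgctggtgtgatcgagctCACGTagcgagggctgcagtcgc
BNIP3, chr10:131982005-131982084, minus strand: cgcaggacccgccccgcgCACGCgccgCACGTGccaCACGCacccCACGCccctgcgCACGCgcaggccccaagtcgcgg
BNIP3 held 6 matches, 2 of them overlapping in the palindrome CACGTG. The first of 2 HIF1A windows held 1 match and the second held none. EPAS1, ADM, EGLN1, CA9 and P4HA1 held 1 each, and the EGLN3 window held none. Of all 35116 windows in the table, 48.4% held ACGTG or GCGTG and 21.4% held ACGTG, so a match is common. ACGTG stood in the windows of EGLN1, BNIP3, CA9 and P4HA1. Among these 4 genes the transcript of 1, EGLN1, was lower after wogonin, 2 did not pass the test and 1 had no reads, as given below. The windows of HIF1A, EPAS1 and ADM held GCGTG but no ACGTG, and that of EGLN3 held neither. All of these genes were called lower, EGLN3 near the floor of counting. Sites outside the windows were not searched. Over all genes tested 31.5% were called lower and 63.8% either way. Whether the core goes with a change of transcript was not tested.

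Libraries held between 11005921 and 11839562 exon reads, so that 3 reads, the floor used here, were worth 0.253 to 0.273 CPM (reads scaled to a library of 1000000 reads). For this floor the scaling used library totals alone, unlike the other CPM given here. In wogonin 3, 7.96% of gene reads lay in introns, against 5.26% to 5.61% in the other libraries. Mitochondrial genes took 3.03% of exon reads in wogonin 4 and 1.45% to 1.67% elsewhere. Of 11 markers of ovarian cancer and epithelium, including EPCAM, KRT8, KRT18, CDH1, PAX8, WT1 and MUC16, none passed the filter on low counts, and no library held more than 9 reads of any of them. The tissue named in the labels is thus not borne out by these markers. Among markers of other cell types PTPRC, CD3E and VWF had no reads, and COL1A2 had 2 in 1 library. COL1A1, a fibroblast collagen, was read at 152, 128, 76 and 82 reads in DMSO 1, DMSO 2, wogonin 3 and wogonin 4. DCN, also listed as a fibroblast marker, had 19, 23, 12 and 14 reads in the same order. CD68 stood between 165 and 254 reads, of which 19.4% matched a single place.

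In the wogonin libraries 6 of the 9 measured genes were lower and none higher, and 3 did not pass (edgeR quasi-likelihood test, Benjamini-Hochberg adjusted p under 0.05 over 13449 genes). In bulk RNA, less transcript per cell and fewer cells that carry it cannot be told apart. The falls were those of BNIP3L, EPAS1, ADM, EGLN1, HIF1A and EGLN3, and VEGFA, BNIP3 and P4HA1 did not pass. CA9 had no reads. Over all genes tested 31.5% were called lower, 32.3% higher and 63.8% either way, so the share called among the 9 (66.7%) was near the background, while all calls lay on the lower side. Libraries of the 2 groups did not overlap for 7 of the 9, as for 81.9% of all genes tested. The median log2 fold change of the 9 was -0.58, against -0.0007 over all genes tested. EGLN3 passed the filter on low counts through its DMSO libraries alone, which by itself favours a lower value, so the count of 6 of 9 and the median lend no support to a shared fall.

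**Figure D1:**
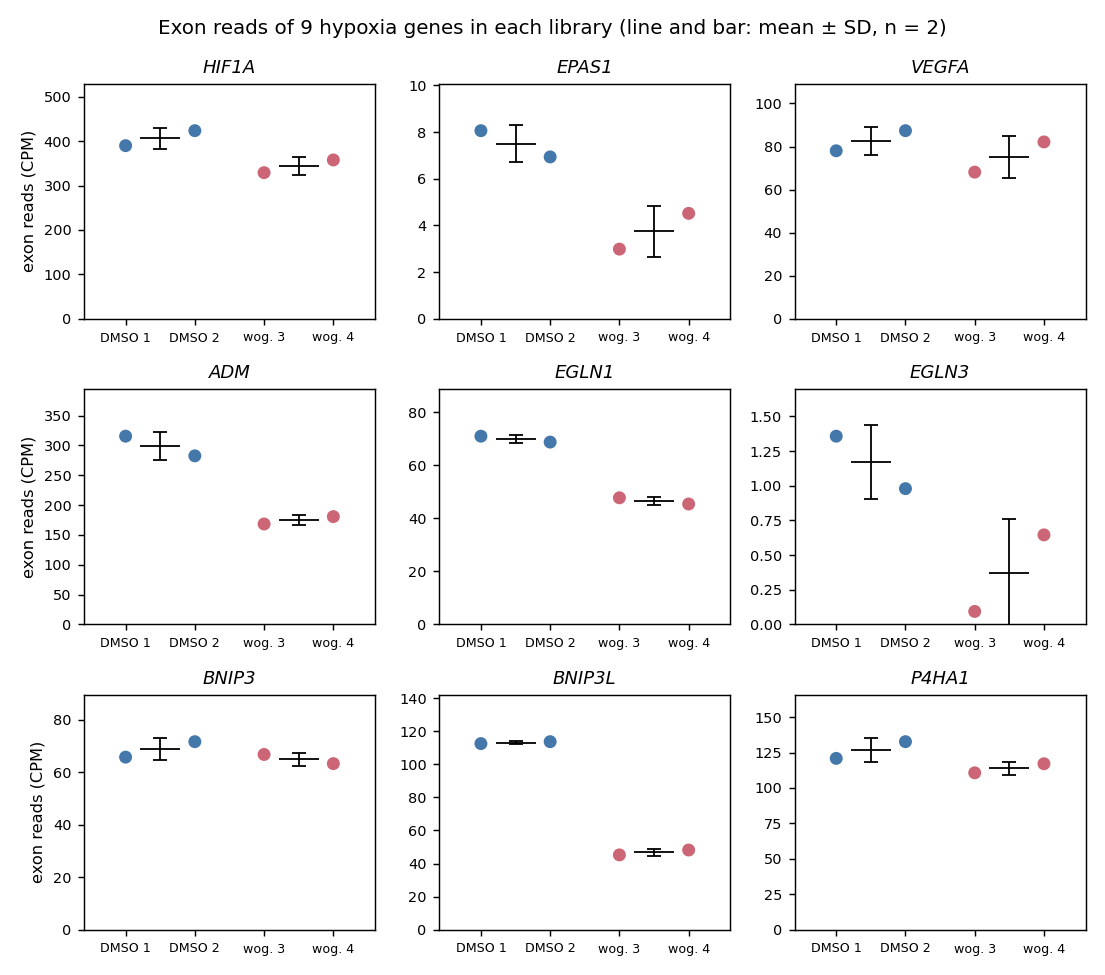
Exon reads in CPM (linear axes from 0, a scale per gene) of the 9 measured genes in DMSO 1 and 2 (blue) and wogonin 3 and 4 (red), with the mean ± SD of each group in black (n = 2; the EGLN3 wogonin bar runs below 0 and is drawn from 0). The groups of BNIP3L, ADM, EGLN1 and EPAS1 stand well apart, while those of VEGFA and BNIP3 overlap.

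Among the oxygen-sensitive factors HIF1A was abundant and slightly lower, and EPAS1 was scarce and clearly lower. HIF1A (ENSG00000100644, chromosome 14, 62162231 to 62214976) was read 4595 and 5191 times in DMSO and 3525 and 3879 times in wogonin, or 389.7, 423, 329 and 358 CPM. Both treated libraries lay below both DMSO libraries, with a gap of 32.1 CPM between the nearest, about as wide as the 33.7 CPM between the DMSO libraries. In the edgeR test HIF1A changed by -0.24 ± 0.06 (log2, SE; adjusted p = 0.0023). Without DMSO 2 the value was -0.19 and did not pass (edgeR adjusted p = 0.064).

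Counting of HIF1A reads was not simple. Between 43.9% and 46.9% of its exon reads matched a single place in each library (95% Wilson intervals within 42.3% to 48.4%), and over 99% of those spanned an exon junction. In the deposited annotation RP11-618G20.1 overlaps it on the same strand, with 43 to 93 exon reads in each library, none of them unique. The change was -0.29 in uniquely placed exon reads. In uniquely placed junction reads, a column chosen after seeing the data, it was also -0.29. These are nearly the same reads, so the likeness of the values adds nothing. The antisense gene HIF1A-AS2 had no reads, and HIF1A-AS1 had between 1 and 4.

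EPAS1 (ENSG00000116016, chromosome 2, 46520806 to 46613836) was read 95 and 85 times in DMSO and 32 and 49 times in wogonin. That is 8.06, 6.93, 2.99 and 4.52 CPM, with no overlap. Its log2 fold change was -0.99 ± 0.23 (SE, edgeR adjusted p = 0.0013), a level 1.99-fold lower. At under 100 reads a library the size was loosely set: it was -0.72 without wogonin 3 and -1.33 without wogonin 4, and passed in both. Per length, the HIF1A level was far above that of EPAS1 in each library, at 338 ± 24.5 against 4.39 ± 0.40 TPM in DMSO (SD, n = 2; TPM is the authors' scale of transcript share, which divides by exon length) and 258 ± 5.51 against 1.99 ± 0.50 TPM in wogonin.

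The 3 genes most like HIF1A over the 4 libraries, by the distance between centred log2 CPM, were NTPCR (distance 0.014), CNST (0.021) and SERINC3 (0.021). Their log2 fold changes were -0.23, -0.26 and -0.23. With 4 libraries in 2 groups such likeness is common: 253 genes lay within a distance of 0.1.

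The hydroxylase EGLN1, also called PHD2 and the main oxygen sensor of most cells, fell in exon reads and rose in intron reads. EGLN1 (ENSG00000135766, chromosome 1, 231499497 to 231560790) had 836 and 842 exon reads in DMSO and 511 and 492 in wogonin, or 70.9, 68.7, 47.7 and 45.4 CPM. The spread within each group was about 2 CPM, far under the gap between groups. The exon log2 fold change was -0.58 ± 0.08 (SE, edgeR adjusted p = 8.0e-06), and it passed in all 15 alternatives, which ran from -0.68 to -0.42.

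Intron reads of EGLN1, all of them uniquely placed, numbered 13 and 17 in DMSO and 124 and 71 in wogonin. Their log2 fold change was 2.35 ± 0.34 (SE, edgeR adjusted p = 7.8e-05 over 9237 genes with intron reads), and it passed in all 7 alternatives, including those without wogonin 3 (2.24) and without wogonin 4 (2.38). In that test 11.6% of genes were called higher and 20.9% either way. Introns made up 1.53% and 1.98% of EGLN1 gene reads in DMSO 1 and 2, 19.5% in wogonin 3 (95% Wilson interval 16.6% to 22.8%) and 12.6% in wogonin 4 (10.1% to 15.6%). The difference between the exon and the intron change was not tested. Wogonin 3 also had the highest share of intron reads over all genes, 7.96%, and its part in the EGLN1 result was not tested beyond leaving that library out. No other gene of the deposited annotation overlaps EGLN1. With exons and introns summed, the gene remained lower, at -0.44.

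**Figure D2:**
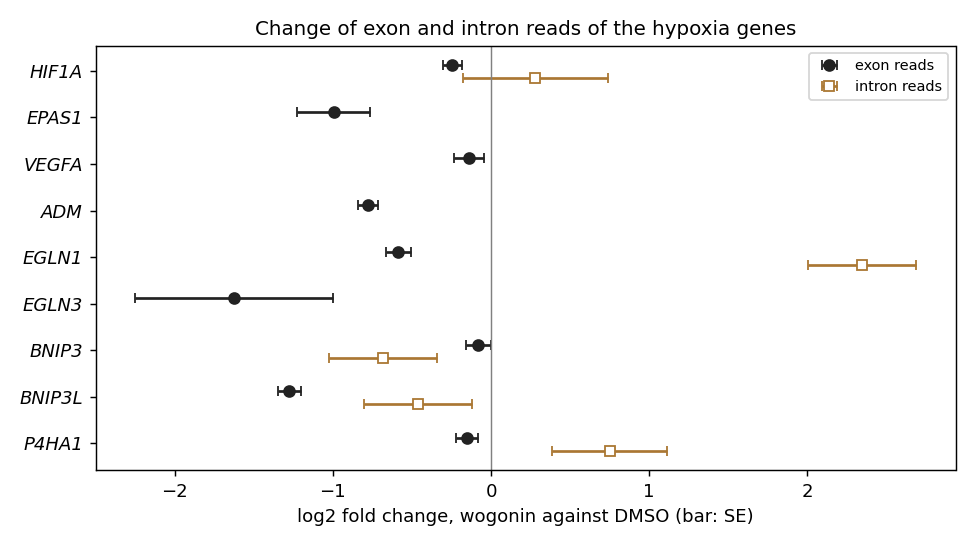
Log2 fold change of wogonin against DMSO in exon reads (black circles) and in uniquely placed intron reads (open brown squares), with standard errors, for each gene that passed the filter of that test. Exon values run from -1.62 in EGLN3, which is near the floor, to -0.08 in BNIP3. Those of BNIP3, VEGFA and P4HA1 did not pass. EGLN1 has an intron value of 2.35 beside an exon value of -0.58.

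EGLN3 (PHD3; ENSG00000129521, chromosome 14, 34393437 to 34931980) is a hydroxylase whose transcript is strongly induced by HIFs in many cells, and here it was near the floor. It had 16 and 12 exon reads in DMSO and 1 and 7 in wogonin, or 1.36, 0.98, 0.09 and 0.65 CPM. The log2 fold change of -1.62 ± 0.63 (SE) had an edgeR adjusted p of 0.030. DESeq2 did not call it (adjusted p = 0.19). With introns counted the value was -0.62 in all and -0.41 in uniquely placed reads of the gene, and neither passed. The call was also lost without DMSO 1 (-1.39), DMSO 2 (-1.85) or wogonin 3 (-0.84), while the value without wogonin 4 was -3.50 and passed. The EGLN3 model in these tables contains SPTSSA on the same strand, which had 684 to 729 exon reads, so intron reads of EGLN3 (5 to 10 a library) may be counted there from either gene.

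VEGFA, the main angiogenic ligand of HIF signalling, did not pass. VEGFA (ENSG00000112715, chromosome 6, 43737921 to 43754224) stood at 78.0 and 87.4 CPM in DMSO and 68.1 and 82.1 CPM in wogonin, and the groups overlapped. In the edgeR test it changed by -0.14 ± 0.09 (log2, SE; adjusted p = 0.21). It passed as lower with library totals alone or upper-quartile factors (-0.23 each), settings under which the median over all genes was -0.09, and without wogonin 4 (-0.28). It was near 0 without wogonin 3. Its deposited exon length of 14431 bases merges 25 transcripts, which lowers its TPM.

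The vasodilator peptide gene ADM, which encodes adrenomedullin, fell clearly. ADM (ENSG00000148926, chromosome 11, 10326227 to 10328944) had 3721 and 3465 exon reads in DMSO and 1804 and 1960 in wogonin, or 316, 283, 168 and 181 CPM. Each treated library was about 100 CPM or more below each DMSO library. On the log2 scale ADM changed by -0.78 ± 0.07 (SE, edgeR adjusted p = 4.8e-08), 1.71-fold lower, and it passed in all 15 alternatives (-0.87 to -0.71). All of its exon reads were uniquely placed. The merged exons of ADM in the deposited annotation cover its whole length of 2718 bases, so no intron read could be counted. In DMSO ADM had the highest level per length of the 10 genes, 471 ± 30.1 TPM. In wogonin it stood at 249 ± 3.06 TPM, near the 258 ± 5.51 TPM of HIF1A, under 50% of whose exon reads were uniquely placed. The order of these genes in wogonin was therefore not settled.

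Of 14 other ligands and receptors of VEGF and adrenomedullin, 4 passed the filter, and 2 of these fell, 1 rose and 1 did not pass, where 63.8% of all genes tested were called. The receptor gene FLT4, which binds VEGFC and VEGFD, fell by 1.14 on the log2 scale (71 and 87 reads in DMSO, 34 and 30 in wogonin). The placental growth factor gene PGF fell by 0.98, a call lost with DESeq2 (adjusted p = 0.14), without DMSO 1 and without wogonin 3. CALCRL, the receptor that binds adrenomedullin together with a RAMP protein, rose by 0.22 on that scale (edgeR adjusted p = 0.019), lost with library totals alone, upper-quartile factors, total gene reads and DESeq2, and without DMSO 1, DMSO 2 or wogonin 4. Of the CALCRL exon reads 49.9% were uniquely placed, and its change in those was 0.37. The genes of its partners RAMP1, RAMP2 and RAMP3 had no reads in any library, and FLT1 had none either. KDR, the main VEGFA receptor, had 1 read in all.

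The paired mitophagy receptors BNIP3 and BNIP3L, which sit in the outer mitochondrial membrane and bind LC3 family proteins, were both well expressed, and of them BNIP3L fell. BNIP3L, also called NIX (ENSG00000104765, chromosome 8, 26240414 to 26363152), had 1326 and 1393 exon reads in DMSO and 485 and 523 in wogonin, or 112, 114, 45.3 and 48.2 CPM. Libraries of a group differed by at most 2.95 CPM. The BNIP3L log2 fold change was -1.27 ± 0.08 (SE, edgeR adjusted p = 7.6e-10), 2.42-fold lower, and it passed in all 15 alternatives (-1.37 to -1.19). Called falls of 1 log2 unit or more made up 9.94% of all genes tested. All BNIP3L exon reads were uniquely placed. Its ends overlap SDAD1P1 and PNMA2 on the opposite strand, which had 3 to 28 and 80 to 188 exon reads, both lower in wogonin, and the strand setting is not given in the sources used here.

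BNIP3 (ENSG00000176171, chromosome 10, 133781578 to 133795435) had 776 and 879 exon reads in DMSO and 716 and 687 in wogonin, or 65.8, 71.7, 66.8 and 63.3 CPM. Wogonin 3 lay between the DMSO libraries. Its log2 fold change was -0.08 ± 0.08 (SE, edgeR adjusted p = 0.39), and it passed in none of 15 alternatives (-0.17 to -0.022). The difference between the changes of BNIP3 and BNIP3L was not tested. The exon values of these genes lay 1.19 log2 units apart, with standard errors of 0.08 each. In introns neither gene passed: the log2 values were -0.68 for BNIP3 (edgeR adjusted p = 0.17) and -0.46 for BNIP3L (edgeR adjusted p = 0.36). Introns took 2.43% and 2.66% of BNIP3L gene reads in DMSO, and 7.44% and 5.60% in wogonin, where exon reads were fewer.

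Of 13 other mitophagy receptors and partners, 12 passed the filter, 6 rose (50%) and 5 fell (41.7%), against 32.3% and 31.5% of all genes tested. Of these 6, the ubiquitin ligase gene PARK2 (parkin; 6 and 5 reads in DMSO, 19 and 17 in wogonin), passed the filter only through wogonin, and its call was lost with DESeq2 (adjusted p = 0.058), without DMSO 2 and in total or unique gene reads. The LC3 family gene GABARAPL1 fell by 1.53 and the mitophagy kinase gene PINK1 by 1.18 on the log2 scale. PINK1 overlaps PINK1-AS on the opposite strand, and its change was -1.60 in uniquely placed exon reads. PHB2, an inner membrane prohibitin and mitophagy receptor, rose by 0.47. With DESeq2 3 fell in place of 5.

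**Figure D3:**
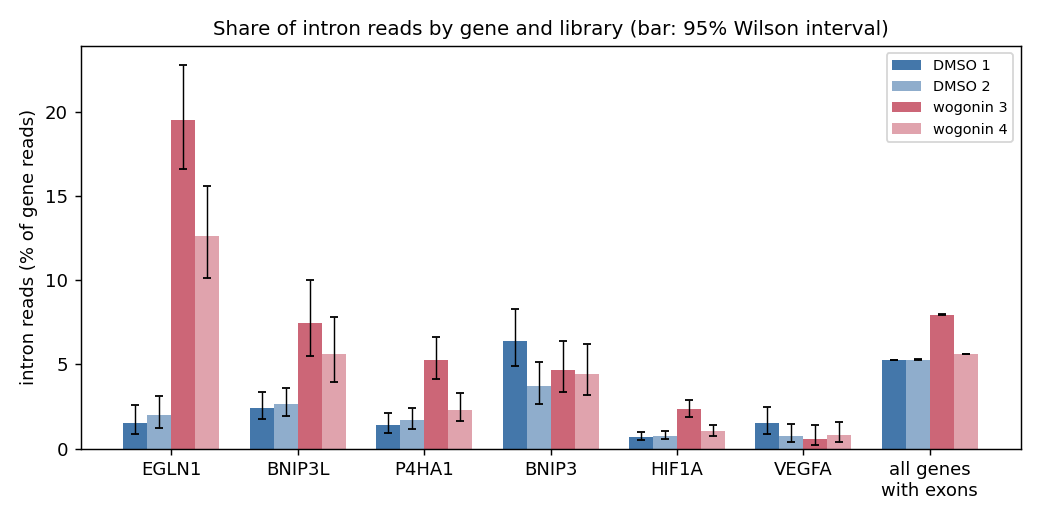
Intron reads as a percentage of all gene reads in each library (bars from 0, with 95% Wilson intervals that cover counting error only) for 6 of the genes and for all genes with exons. EGLN1 reaches 19.5% in wogonin 3 and 12.6% in wogonin 4 from under 2% in DMSO.

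CA9, which encodes a membrane carbonic anhydrase much used as a hypoxia marker (ENSG00000107159, chromosome 9, 35673853 to 35681156), had 0 exon and 0 intron reads in all 4 libraries. A count of 0 allows up to 3 reads, which is 0.253 to 0.273 CPM by library totals alone, and no fold change can be given. Of 12 other carbonic anhydrases 5 passed the filter, 3 fell and none rose. The share called (60.0%) was near the 63.8% called either way over all genes tested, where 31.5% were called lower. CA12, a close membrane relative of CA9 and also a described hypoxia gene, fell by 1.72 on the log2 scale (47 and 38 reads in DMSO, 10 and 13 in wogonin). CA8 fell by 1.04 and CA14 by 0.53. Like EGLN1, CA14 had more intron reads after wogonin, 233 and 211 against 10 and 14, so that its change in total gene reads was 0.51, the opposite direction, while in junction reads it was -2.03.

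P4HA1, the catalytic alpha subunit of a collagen prolyl hydroxylase, did not pass. P4HA1 (ENSG00000122884, chromosome 10, 74766975 to 74856732) had 1425 and 1626 exon reads in DMSO and 1186 and 1270 in wogonin, or 121, 133, 111 and 117 CPM. Both treated libraries lay below both DMSO libraries by a small margin of 3.78 CPM, an order that 40.9% of all genes tested showed. The log2 fold change was -0.15 ± 0.07 (SE, edgeR adjusted p = 0.062). It passed in 7 of 15 alternatives (-0.25 to -0.091), among them library totals alone. Its intron reads were 20 and 28 in DMSO and 66 and 30 in wogonin, of which wogonin 3 stood apart (log2 fold change of unique intron reads 0.75, edgeR adjusted p = 0.15). Of 7 other collagen prolyl and lysyl hydroxylase genes, 5 rose (71.4%) and none fell, against 32.3% called higher and 31.5% called lower over all genes tested. P4HB, the beta subunit that pairs with P4HA1, rose by 0.61, PLOD2 by 0.42 and PLOD3 by 0.38.

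Per length the order of the 10 genes in DMSO was ADM, HIF1A, P4HA1 (170.3 ± 13.6 TPM), BNIP3 (139 ± 10.4), BNIP3L (112 ± 2.39), EGLN1 (41.1 ± 0.35), VEGFA (24.5 ± 2.30), EPAS1, EGLN3 (0.68 ± 0.15) and CA9 (SD, n = 2). The libraries of neighbours in this order did not overlap. The place of HIF1A rests on TPM that include its reads with more than 1 match, and in uniquely placed reads its level would be lower. Apart from HIF1A, the order was the same in wogonin. BNIP3 stood at 119.8 ± 9.04 and BNIP3L at 42.1 ± 0.29 TPM there, so that a small gap in DMSO became a wide one.

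Partners and controllers of the factors went both ways. Of 19 listed, 18 passed the filter, 9 fell, 4 rose and 5 did not pass (median log2 value -0.25). The shares were 50% lower and 22.2% higher, against 31.5% and 32.3% of all genes tested. CITED2, a HIF-induced protein that competes with the factors for the coactivators CREBBP and EP300, had the smallest adjusted p. It stood at 632 and 583 CPM in DMSO and at 139.7 and 155 CPM in wogonin, a log2 change of -2.04 ± 0.07 (SE; edgeR adjusted p = 2.1e-12). CREBBP itself fell by 0.62. SIAH1, a ubiquitin ligase that acts on hydroxylases, fell by 1.10, but 14.5% of its exon reads were uniquely placed and it overlaps LONP2 on the opposite strand. TCEB1 (elongin C, a part of the VHL ligase) rose by 0.49.

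Further members of this list are named after their values were seen. The shared partner ARNT fell by 0.31 on the log2 scale, EP300 by 0.37 and VHL by 0.19. VHL was lost with DESeq2 (adjusted p = 0.055), without DMSO 2, without wogonin 3 and in junction reads. The asparaginyl hydroxylase gene HIF1AN rose by 0.39, but its value in junction reads was -0.076, and genes on the opposite strand overlap it. EGLN2, the remaining EGLN hydroxylase, did not pass (-0.06), and 3.12% of its exon reads were uniquely placed; RAB4B-EGLN2 overlaps it on the same strand. HIF3A had no reads.

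Other described HIF targets went both ways. Of 28 listed, 25 passed the filter, 11 fell, 7 rose and 7 did not pass (median -0.23), which is 44.0% lower and 28.0% higher beside the 31.5% and 32.3% of all genes. TFRC, the transferrin receptor, stood at 148 and 141 CPM in DMSO and at 429 and 475 CPM in wogonin, a log2 change of 1.65 ± 0.06 (SE; edgeR adjusted p = 9.2e-12). The atypical cyclin gene CCNG2 fell by 1.92 and the MYC antagonist gene MXI1 by 2.01. NDRG1, a widely used hypoxia marker, had 65 and 63 reads in DMSO and 2 and 5 in wogonin. It was named for these values and passed the filter only through DMSO, so they are given as a description. NDRG1 is counted among the 11 that fell, so that count, the 44.0% and the median lend no support to a shared fall. Also named after their values were seen, the mTOR brake DDIT4 fell by 1.76 (log2), and the histone demethylase gene KDM3A fell by 1.06. The ephrin gene EFNA1 fell by 1.78. In the other direction AK4, an adenylate kinase of mitochondria, rose by 0.88, the oxidoreductase gene ERO1L by 0.51 and the clock-linked repressor gene BHLHE40 by 0.48, the last lost in junction reads. LOX, a collagen crosslinking enzyme, rose by 0.93, a call lost with DESeq2 (adjusted p = 0.10), in unique gene reads, without DMSO 1 and without wogonin 4. DDIT4 had 34.0% of its exon reads uniquely placed, and its change in those was -1.93.

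Glycolytic HIF targets also went both ways. Of 20 listed, 19 passed the filter, 10 rose (52.6%) and 3 fell (15.8%), against 32.3% and 31.5% of all genes tested (median 0.17). The aldolase gene ALDOA rose by 0.80 and the hexokinase gene HK1 by 0.81, while PDK1, which encodes an inhibitor of pyruvate dehydrogenase, fell by 0.86. Named after their values were seen, the hexokinase gene HK2 rose by 0.65, PFKFB3, which makes an activator of phosphofructokinase, by 0.61, the isomerase gene GPI by 0.44 and the mutase gene PGAM1 by 0.39. The glucose transporter genes SLC2A1 and SLC2A3, named likewise, fell by 0.30 and 0.40. The SLC2A1 call was lost with DESeq2 (adjusted p = 0.094), without DMSO 1, without wogonin 4 and in junction reads. No test compared these lists with each other or with other genes.

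**Figure D4:**
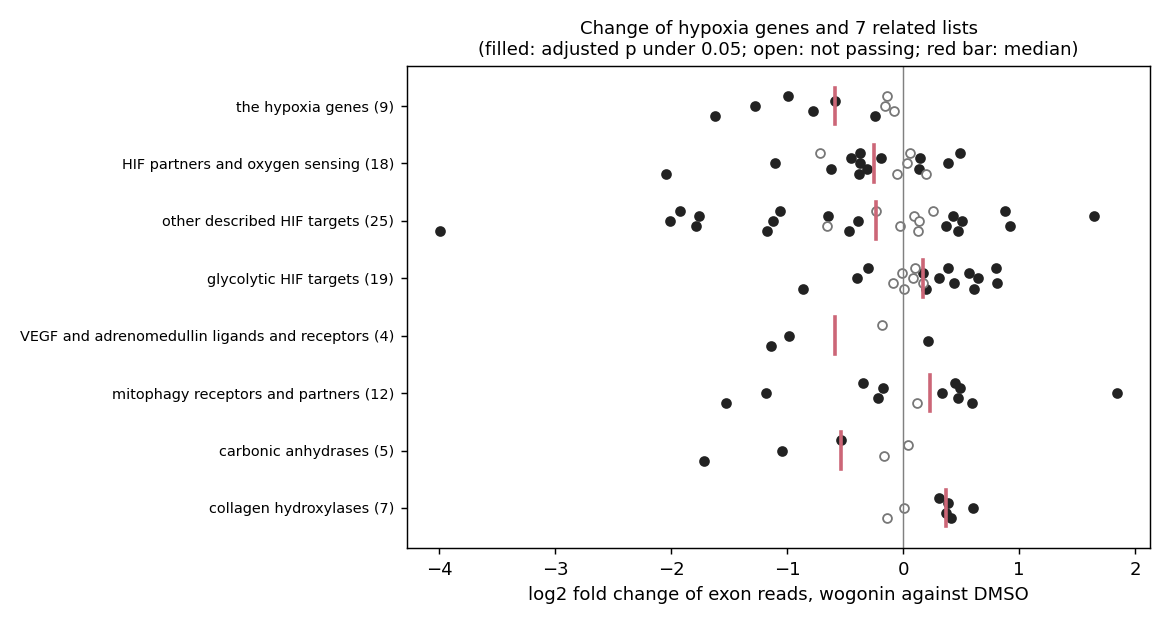
Log2 fold change of exon reads for the 9 measured hypoxia genes and the tested genes of 7 related lists (number in brackets). Filled points passed at an adjusted p under 0.05, open points did not, and red bars are medians, which run from -0.59 in the VEGF and adrenomedullin list to 0.37 in the collagen hydroxylases.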

How the data were processed

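RNA sequencing of 4 A2780 libraries was analysed. Per the labels' protocols, a SMARTER mRNA-Seq kit was used to prepare the libraries. The submitters' processing notes name the builds GRCh37 and hg19. For the aligner, the counter and the strand, the answer is not given in the sources used here. Per the file headers, the deposited tables hold counts of reads per gene in exons, junctions and introns, as totals and as uniquely placed reads, and TPM values that the authors computed.

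The main test was edgeR's 2-sided quasi-likelihood test of total exon counts (edgeR 4.0.16, R 4.3.3), fitted robustly on treatment alone after filterByExpr and TMM scaling, with Benjamini-Hochberg adjustment over all genes tested and a threshold of 0.05. Unique intron counts of genes with exons and introns were fitted likewise. CPM are scaled by TMM, except those of the floor of 3 reads, which use library totals alone. Wilson intervals are at 95%. Counting error alone is covered by them and by the floor of 3 reads. The test was also run on simulated counts in which few genes changed, with a spread taken from these libraries. That run cannot check the test where 63.8% of genes are called or where the spread is technical. limma 3.58.1 and DESeq2 1.42.0 served as alternatives.

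Groups came from sample titles. The members and lists were chosen with earlier results of these data known. Named were all members, up to 3 genes per list by smallest adjusted p, 1 in the other direction, and the 3 genes most like HIF1A. No protein sequences were used here. PECAM1 was not analysed here.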

Additional observations from a re-analysis of the deposited data

How the results depend on the processing

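No paired analysis was possible because the groups share no replicate number. BNIP3L, ADM, EGLN1 and EPAS1 fell and passed in all 15 alternatives for exon reads, and BNIP3 passed in none. The scalings by library totals alone and by upper-quartile factors shifted the median over all genes to -0.09. Of all calls 42.4% were then higher, against 50.6%. Under both, VEGFA (-0.23) and P4HA1 (-0.25) passed as lower, 2 partners in place of 4 rose, and no gene of the VEGF and adrenomedullin list rose in place of 1. P4HA1 also passed without a filter (-0.17), in total gene reads (-0.20) and in unique gene reads (-0.19). EGLN3 did not pass with DESeq2 (-1.66), in total gene reads (-0.62) or in unique gene reads (-0.41), and it was not tested under the stricter filter or in junction reads. DESeq2 called none higher and 1 lower in the VEGF and adrenomedullin list and 3 lower among mitophagy genes in place of 5. In total gene reads, and in unique gene reads, 2 partners rose, 1 carbonic anhydrase rose and 1 ovarian cancer or epithelial marker fell, against none of either in exon reads. CA14 turned to 0.51 in total and 0.52 in unique gene reads. In unique gene reads 2 genes of the VEGF and adrenomedullin list rose. In unique junction reads, chosen after seeing the data, 1 partner and 4 other targets rose, against 4 and 7, and HIF1AN was -0.076. The cause of these changes was not tested.

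Leaving out each library in turn gave ranges of -0.32 to -0.18 for HIF1A, -3.50 to -0.84 for EGLN3, -0.24 to -0.091 for P4HA1 and -0.28 to -0.0042 for VEGFA. Between 2 and 4 partners rose, and 0 to 1 rose and 1 to 2 fell in the VEGF and adrenomedullin list. In intron reads, 1928 genes were called, 1073 higher and 855 lower. With a library left out there were 446 to 3605 calls, 265 to 1803 of them higher and 181 to 1802 lower, the fewest without DMSO 1 and the most without wogonin 4. Scaled like the exon reads, 997 intron calls were made, 102 of them lower, and the median of all genes moved to 0.53. EGLN1 passed in all 7 intron alternatives (2.18 to 2.85). With a library left out, BNIP3 ran from -0.99 to -0.30 and P4HA1 from 0.42 to 0.93 in introns, and each passed without wogonin 4. Low depth limits EPAS1, EGLN3 and CA9.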
